A study of Mus musculus with 6 samples.

Results

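The genes described here are 42 genes of the cell cycle and mitosis, of 22911 gene symbols named on the array. They were chosen by symbol from knowledge of the cell cycle, with earlier results of these data known. They were measured in 6 mouse hepatocellular carcinomas (HCC), the main cancer of liver parenchyma, on 1-colour Agilent arrays with 1 tumour per array. All mice were C57BL/6. Albumin-derived HCC without CLC came from Alb-AID mice at an age of 90 weeks, and there were 2 such tumours. Epcam-derived HCC, which the series describes as derived from ductular progenitor cells, came from Epcam-AID mice given tamoxifen and fed 0.1% DDC, a chemical that injures bile ducts, for 8 months, and there were 2 tumours without CLC and 2 with CLC. The labels expand neither CLC nor AID and give no sex. They do not say which promoter or cell type drives AID, whether the 2 tumours of a group came from separate mice, or the age of the Epcam-AID mice. Origin, tamoxifen, diet and age therefore cannot be told apart between the Albumin-derived and the Epcam-derived groups. The p-values set differences against the spread between these tumours, which may or may not be a spread between mice. The tumours are called Albumin tumours 1 and 2, Epcam tumours 1 and 2 (Epcam-derived without CLC) and CLC tumours 1 and 2 (Epcam-derived with CLC), by the replicate numbers of the labels.

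A dividing cell copies its DNA in S phase and separates the copies in mitosis (M), with the gaps G1 and G2 before each. Cyclins switch on cyclin-dependent kinases (CDK), E2F factors turn on the genes that load and fire replication origins at the G1/S boundary, and the later genes of G2 and mitosis are switched on by the MuvB complex with Mybl2 and Foxm1. In the adult liver most hepatocytes rest outside the cycle, and transcripts of these genes are widely used as a readout of proliferation in liver tumours. By textbook function, 16 members were assigned to G1/S and 26 to G2/M.

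The promoters of 5 members are shown because most members differed in the same direction within each pair of tumours, as described further on. The control elements of such promoters are also known, but their part in these levels was not tested. Each window runs from 250 bases before to 50 bases after the gene's start, from RefSeq on GRCm38.p6, 5′ to 3′ on the gene's strand. Capitals mark exact matches, on either strand, to TTTGAA (the cell cycle genes homology region, CHR), to its variant TTTAAA, to CCAAT, and to 2 forms of the E2F site, TTCCCGC and TTTGGCGC. None of the marked matches overlap one another. Ccna2 is named only. Ccnb1 lies at chr13:100786437-100786736 on the minus strand, Cdc20 at chr4:118437294-118437593 on the minus strand, Plk1 at chr7:122159185-122159484 on the plus strand, Mcm5 at chr8:75109259-75109558 on the plus strand and Cdc6 at chr11:98907901-98908200 on the plus strand.
Ccnb1: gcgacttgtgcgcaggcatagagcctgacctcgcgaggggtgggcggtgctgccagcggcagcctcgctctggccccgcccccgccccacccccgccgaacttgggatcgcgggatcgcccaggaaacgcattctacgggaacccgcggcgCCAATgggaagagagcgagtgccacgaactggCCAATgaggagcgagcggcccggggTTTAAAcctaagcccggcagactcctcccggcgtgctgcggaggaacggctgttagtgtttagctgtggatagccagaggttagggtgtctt
Cdc20: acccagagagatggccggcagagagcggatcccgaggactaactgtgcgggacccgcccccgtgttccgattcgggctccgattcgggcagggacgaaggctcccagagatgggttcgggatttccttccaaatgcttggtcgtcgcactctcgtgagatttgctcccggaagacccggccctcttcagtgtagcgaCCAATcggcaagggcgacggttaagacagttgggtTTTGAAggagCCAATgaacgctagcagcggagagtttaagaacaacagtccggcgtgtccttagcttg
Plk1: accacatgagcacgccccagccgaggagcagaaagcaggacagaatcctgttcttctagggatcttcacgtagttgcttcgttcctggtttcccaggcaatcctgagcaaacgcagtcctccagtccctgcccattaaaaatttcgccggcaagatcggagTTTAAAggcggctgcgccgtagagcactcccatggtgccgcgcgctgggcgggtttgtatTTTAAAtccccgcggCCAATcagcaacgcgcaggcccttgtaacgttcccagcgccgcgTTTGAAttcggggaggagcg
Mcm5: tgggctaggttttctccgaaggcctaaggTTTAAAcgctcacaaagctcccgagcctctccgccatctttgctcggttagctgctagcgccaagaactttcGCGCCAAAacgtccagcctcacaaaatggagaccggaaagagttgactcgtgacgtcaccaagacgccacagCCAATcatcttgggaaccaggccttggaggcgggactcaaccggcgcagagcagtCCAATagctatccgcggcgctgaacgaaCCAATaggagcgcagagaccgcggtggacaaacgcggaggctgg
Cdc6: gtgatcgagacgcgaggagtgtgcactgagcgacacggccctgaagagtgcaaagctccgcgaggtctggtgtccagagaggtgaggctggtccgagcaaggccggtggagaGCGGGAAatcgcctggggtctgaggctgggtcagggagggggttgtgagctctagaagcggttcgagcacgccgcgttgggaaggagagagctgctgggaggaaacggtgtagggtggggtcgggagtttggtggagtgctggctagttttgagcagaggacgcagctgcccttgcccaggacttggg

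Ccnb1, Cdc20 and Plk1 act in G2 and mitosis. Mcm5 is a subunit of the replicative helicase, and Cdc6 helps to load this helicase on DNA in G1. With the first base of the gene counted as 0, the CHR letters of Cdc20 began at -18 with a CCAAT on each side, at -53 and -8, while Ccnb1 held the TTTAAA form at -42 behind 2 CCAAT matches at -99 and -67. The windows of Mcm5 and Cdc6 each held an E2F match, at -149 and -138. Windows were found for 34 of the 42 members, 20 of G2/M and 14 of G1/S. TTTGAA occurred in 14 of the 20 G2/M windows and in 1 of the 14 G1/S windows (Mcm2), against 20.2% of all 27025 genes with a window. TTTAAA occurred in 6 of 20 and 4 of 14, against 14.9%, and either form in 17 of 20 and 5 of 14, against 30.6%. CCAAT occurred in 17 of 20 and 8 of 14, against 41.1%. An E2F match occurred in 0 of the 20 G2/M windows and in 7 of the 14 G1/S windows (Cdc6, Cdt1, Mcm3, Mcm5, Mcm6, Mcm7 and Rrm1), against 5.795%. A match describes the letters in the window only.

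All 42 members had a probe, and 39 entered the test. Ccne2, Bub1b and Kif11 did not, because they were not well above background, the scanner's mark for a spot clearly brighter than its surroundings, on both arrays of any group. Of the 42 members, 41 and 36 were well above background in Albumin tumours 1 and 2, 39 and 41 in Epcam tumours 1 and 2, and 37 and 41 in CLC tumours 1 and 2, and 0 spots were saturated. Over all probes 52.0% to 64.6% were well above background, and the 75th percentile of signal ran from 285 to 488. The hepatocyte markers Alb, Apoa1, Ttr, Apob, Tat, Serpina1a and Hnf4a were well above background on all 6 arrays. The Albumin arrays lay on slide 1 and the Epcam arrays on slide 2, while CLC tumour 1 was on slide 1 and CLC tumour 2 on slide 2. The share of probes well above background and the 75th percentile both split by slide. On slide 1 they ran from 52.0% to 56.5% and from 285 to 315, and on slide 2 from 63.1% to 64.6% and from 424 to 488. Levels are given as log2 signal minus the 75th percentile of the array, so that 0 is the array's 75th percentile. A level belongs to a gene's own probe and is not set against the level of another gene.

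For 35 of the 42 members, more than 50% of the variance over the 6 arrays lay within groups, against 47.0% of all features. The level was higher in Albumin tumour 1 than in Albumin tumour 2 for 41 of 42 members, higher in Epcam tumour 2 than in Epcam tumour 1 for 40 of 42, and higher in CLC tumour 2 than in CLC tumour 1 for 40 of 42. Over all 27412 features tested the same directions held for 50.4%, 48% and 51.7%. The median difference over the members was 1.23, 1.65 and 1.23 on the log2 scale, and 25, 31 and 26 members differed more than 2-fold in that direction, against 6.31%, 6.5% and 8.86% of all features. Which tumour of a pair was put first was chosen after the values were seen, and with 2 tumours a group no test is made of it. In bulk tumour RNA, fewer cells of a type and less RNA per cell cannot be told apart.

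**Figure D1:**
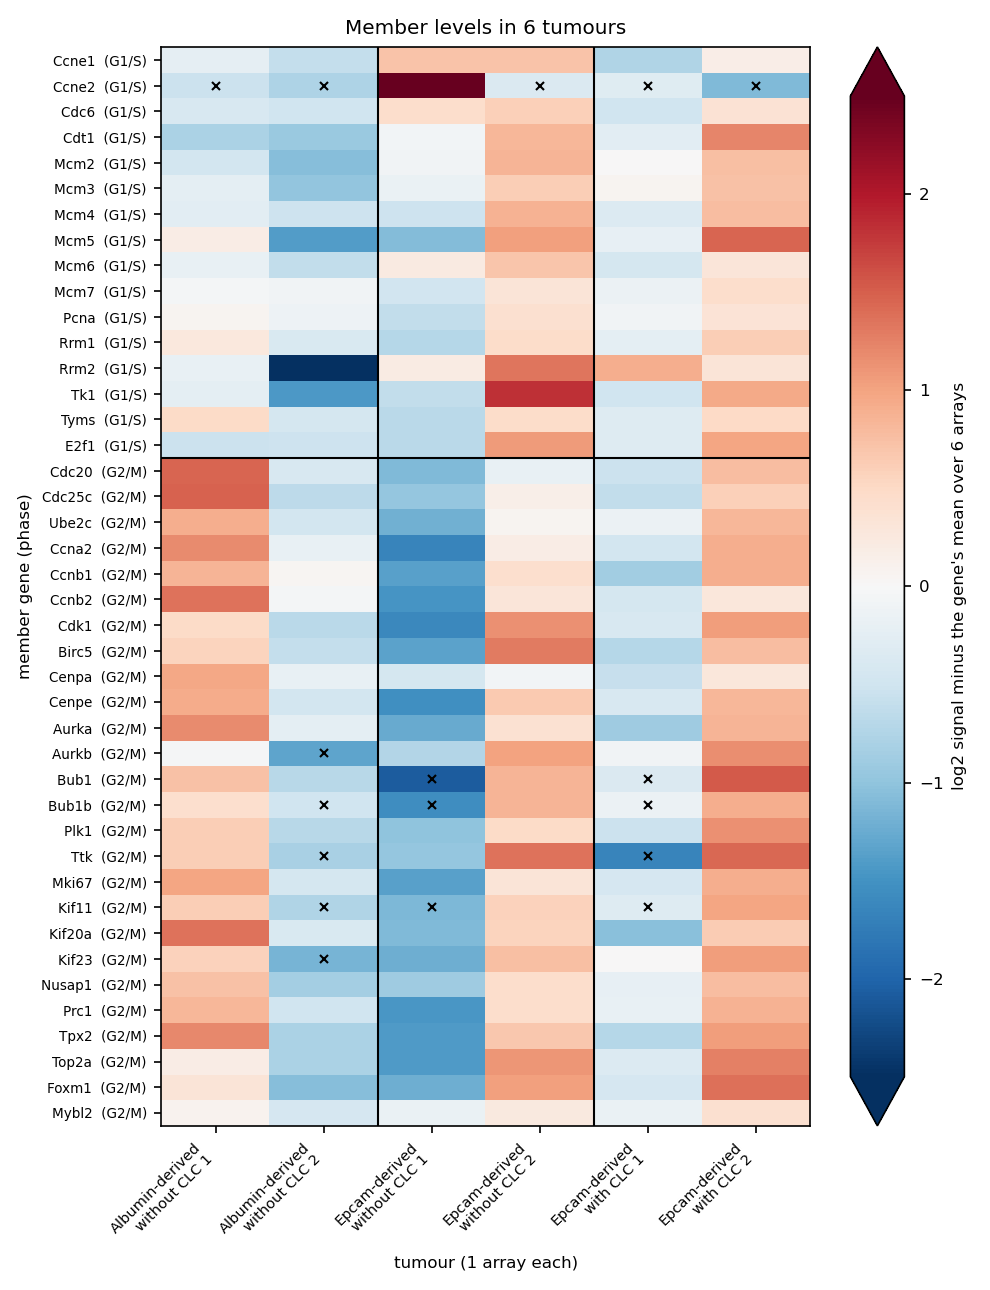
Levels of the 42 members (rows, G1/S above the horizontal line and G2/M below it) in 6 tumours (columns, 2 per group), as log2 signal minus each gene's mean over the 6 arrays. A cross marks a value not well above background. Colours past 2.5 in either direction are drawn at the end of the scale. Epcam tumour 1 holds the lowest value of 28 members, and CLC tumour 2 holds the highest of 19.

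The G2/M members moved in 1 direction within each pair. All 26 were higher in Albumin tumour 1, in Epcam tumour 2 and in CLC tumour 2 than in the other tumour of the group, by medians of 1.38, 1.78 and 1.32. Among the 21, 23 and 22 of them that were well above background on both arrays of the pair, the differences ran from 0.51 to 2.14, from 0.37 to 2.75 and from 0.58 to 1.79. The G1/S members followed the same order for 15, 14 and 14 of 16, by smaller medians of 0.40, 0.98 and 0.84. The exceptions were E2f1 in the Albumin pair, Ccne1 and Ccne2 in the Epcam pair, and Ccne2 and Rrm2 in the CLC pair. Both tumours of the Albumin pair lay on slide 1 and both of the Epcam pair on slide 2, whereas in the CLC pair tumour and slide cannot be told apart. Among the 35 members well above background on all 6 arrays, 34 followed this order in each of the 3 groups.

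**Figure D2:**
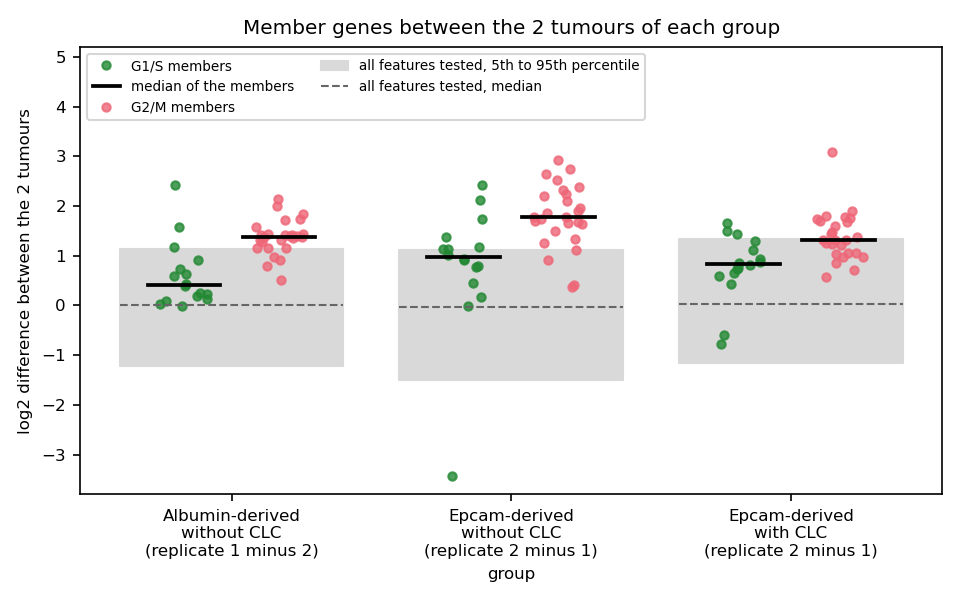
Difference in log2 signal between the 2 tumours of each group, 1 point per member, with G1/S members in green and G2/M members in red. Black lines are medians of the members, the grey band runs from the 5th to the 95th percentile of all features tested and the dashed line is their median. All 26 G2/M members lie above 0 in each group. Values not well above background are drawn as measured, among them the single point near -3.4 in the Epcam pair, Ccne2.

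Other probes of the same genes gave a like picture. There were 20 further probes for 17 of the members, and the difference had the direction of the probe used for 17 of them in the Albumin pair, 19 in the Epcam pair and 19 in the CLC pair. Of these probes, 9 were well above background on all 6 arrays, and the 9 had the direction of the probe used in all 3 pairs. The probes that differed in at least 1 pair belonged to Cdc6, Mybl2 and Ttk and were well above background on 4, 0 and 2 arrays. The share of a gene's variance over the 6 arrays that lay within groups had a median of 81.3% over the members, against 47.3% over all features tested. It was above 50% for all 26 G2/M members, with a median of 83.6%, and for 9 of the 16 G1/S members, with a median of 60.2%, against 47.0% of all features. The share is of a sum of squares with more degrees of freedom within groups than between them. A share above 50% therefore does not by itself show more spread within groups. The share was lowest for Ccne1 at 25.01% and Cdc6 at 29.3% and highest for Birc5 at 99.9%.

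Lists of cell type markers, those of hepatocytes among them, did not share this order as sums. Over 8 marker lists with 46 genes, the summed linear level, relative to the 75th percentile, was higher in Albumin tumour 1, Epcam tumour 2 and CLC tumour 2 all together for 0 lists. Such a sum rests mostly on the brightest genes, such as Spp1 among the biliary markers and Cd4 among the T and NK cell markers. For the 5 B and plasma cell markers the sums in the pairs of Albumin, Epcam and CLC tumours were 1.58 and 0.580, 2.04 and 1.24, and 1.86 and 1.86. In the Epcam pair 4 of these 5 markers were higher in tumour 2, and only Jchain, at 0.14 and -4.46, was lower. By the median of the centred levels, however, this list followed the members' order in all 3 pairs, with 0.36 against -1.51, 0.25 against -0.056 and 0.63 against 0.31, and 3 to 5 of its 5 genes were well above background. The sums were 36.8 and 20.6, 45.9 and 29.4, and 15.5 and 27.0 for the 7 T and NK cell markers, of which 5 or 6 were well above background and Ncr1 on no array. They were 21.7 and 37.4, 39.8 and 54.4, and 79.8 and 57.0 for the 6 macrophage markers, of which 5 or 6 were well above background. The 6 biliary markers, of which 2 to 5 were well above background, summed to 4.58 and 37.8, 43.5 and 29.5, and 59.9 and 108, and the 7 hepatocyte markers to 3617 and 3030, 2175 and 1929, and 2404 and 1726. The endothelial sums ran from 6.06 in Albumin tumour 2 to 17.1 in CLC tumour 1 with 5 of 5 genes well above background. The stellate and fibroblast sums ran from 8.49 in Albumin tumour 1 to 19.9 in CLC tumour 2 with 4 or 5 of 5. The erythroid sums ran from 2.63 in Albumin tumour 2 to 10.5 in Albumin tumour 1 with 3 or 4 of 5, and Epb42 was not well above background on any array. The part of these cells in the members' levels was not tested.

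Mki67, the Ki-67 antigen used to stain cycling cells in pathology, had levels of 1.74 and 0.33 in Albumin tumours 1 and 2, -0.60 and 1.09 in Epcam tumours 1 and 2, and 0.35 and 1.67 in CLC tumours 1 and 2. The tumours of a pair thus stood 2.66-fold, 3.22-fold and 2.50-fold apart, and the ranges of all 3 groups overlapped. Top2a, the topoisomerase that untangles replicated chromosomes, had levels of -0.97 and -1.95 in Albumin tumours 1 and 2, -2.58 and -0.052 in Epcam tumours 1 and 2, and -1.50 and 0.097 in CLC tumours 1 and 2. Its largest gap, 5.77-fold, was again between the Epcam tumours.

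Among the cyclins of G2 and mitosis, Ccna2 measured 0.53 and -0.83, -2.32 and -0.46, and -1.11 and 0.26 in the Albumin, Epcam and CLC tumours in the same order. Ccnb1, the B-type cyclin that drives entry into mitosis, measured -0.24 and -1.04, -2.45 and -0.67, and -1.96 and -0.19, so that Epcam tumour 1 was lowest and CLC tumour 1 the next lowest. Their kinase partner Cdk1 measured -2.02 and -3.17, -4.10 and -1.36, and -2.90 and -1.45. The Cdk1 gap within pairs was 2.22-fold, 6.72-fold and 2.73-fold, and Epcam tumour 1 lay below every other tumour. Ccnb2 and Cdc25c, the phosphatase that activates Cdk1, had the same direction in the 3 pairs, with gaps of 2.65-fold, 3.44-fold and 1.65-fold and of 4.40-fold, 2.17-fold and 2.33-fold.

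Cdc20 and Ube2c belong to the machinery that marks proteins for destruction at anaphase. Cdc20 measured 1.86 and 0.013, -0.70 and 0.22, and -0.14 and 1.18, and Ube2c measured -0.023 and -1.39, -2.13 and -0.87, and -1.07 and -0.09. Both were highest in Albumin tumour 1 and lowest in Epcam tumour 1.

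Plk1, a kinase of mitotic entry and spindle assembly, measured 0.62 and -0.70, -1.01 and 0.48, and -0.54 and 1.15. Aurkb, the kinase of the chromosomal passenger complex, measured -3.32 and -4.60, -4.02 and -2.27, and -3.38 and -2.12, with Albumin tumour 2 not well above background. Bub1, a kinase of the spindle checkpoint, measured -2.83 and -4.26, -5.65 and -2.73, and -3.92 and -2.02. Epcam tumour 1 and CLC tumour 1 were not well above background for Bub1, so no fold is given for those pairs. Aurka, Bub1b and Ttk, the other kinases of this group, had the same direction in each pair. Ttk was not well above background in Albumin tumour 2 or CLC tumour 1, nor was Bub1b in Albumin tumour 2, Epcam tumour 1 or CLC tumour 1.

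Birc5, the survivin subunit of the passenger complex, measured 2.14 and 0.99, 0.26 and 2.89, and 0.88 and 2.37. Its group means were nearly equal, and almost all of its variance lay within groups. Cenpa, the histone that marks the centromere, measured -0.15 and -1.30, -1.55 and -1.18, and -1.69 and -0.84, the smallest gap between the Epcam tumours among the G2/M members at 1.29-fold. Kif11, the motor that separates spindle poles, measured -3.55 and -4.91, -5.29 and -3.58, and -4.49 and -3.18, with 3 of the 6 values (Albumin tumour 2, Epcam tumour 1 and CLC tumour 1) not well above background. The other motor and spindle genes (Cenpe, Kif20a, Kif23, Nusap1, Prc1 and Tpx2) had gaps from 1.96-fold for Nusap1 in the CLC pair to 4.58-fold for Cenpe in the Epcam pair.

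The transcription factors differed among themselves. Foxm1, which activates G2/M genes, measured -1.80 and -3.19, -3.34 and -1.09, and -2.53 and -0.74, with gaps of 2.62-fold, 4.76-fold and 3.47-fold. Mybl2, its partner on the MuvB complex, measured -1.33 and -1.84, -1.58 and -1.18, and -1.60 and -1.02, with gaps of only 1.42-fold, 1.32-fold and 1.50-fold. E2f1, the activator of G1/S genes, measured -0.86 and -0.84, -1.004 and 0.74, and -0.64 and 0.66. The Albumin tumours were level for E2f1, at a gap of 1.01-fold, while the Epcam and CLC tumours stood 3.36-fold and 2.46-fold apart.

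Among the genes that license origins, Mcm5, a subunit of the replicative helicase, measured -0.72 and -2.31, -2.01 and 0.12, and -1.11 and 0.54. Mcm2, another subunit, measured -1.38 and -1.97, -1.01 and -0.063, and -0.90 and -0.16, so that both Albumin tumours lay below the other 4. Mcm6 measured 2.30 and 1.88, 2.72 and 3.18, and 2.04 and 2.80. Cdc6 and Cdt1, which load the helicase on DNA, were close to level within the Albumin pair by the probes used. Cdc6 measured -1.66 and -1.75, -0.82 and -0.66, and -1.76 and -0.89, with gaps in the Albumin and Epcam pairs of 1.06-fold and 1.12-fold. A second Cdc6 probe, well above background on 4 of the 6 arrays, disagreed, with Albumin tumour 1 below tumour 2 by 3.31 and Epcam tumour 2 above tumour 1 by 2.15 on the log2 scale. Cdt1 measured -0.33 and -0.46, 0.39 and 1.30, and 0.20 and 1.69, lowest in the Albumin tumours. Within pairs, Mcm3, Mcm4 and Mcm7 had gaps from 1.02-fold for Mcm7 in the Albumin pair to 2.61-fold for Mcm4 in the Epcam pair.

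Pcna, the sliding clamp of DNA polymerase, measured 2.49 and 2.30, 1.81 and 2.83, and 2.34 and 2.77, and Tyms, the enzyme that makes thymidylate, measured 1.60 and 0.68, 0.46 and 1.59, and 0.82 and 1.64. Both followed the order of the G2/M members with narrower gaps, at most 2.02-fold for Pcna and 2.18-fold for Tyms. Rrm2, the regulated subunit of ribonucleotide reductase, measured 0.999 and -1.42, 1.40 and 2.53, and 2.11 and 1.52. Albumin tumour 2 was 5.34-fold below Albumin tumour 1, the widest Albumin gap of any member, and the CLC pair ran the other way. Rrm1 and Tk1 followed the common order in the 3 pairs, with the widest gap 5.37-fold for Tk1 in the Epcam pair.

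The E cyclins, which start S phase with Cdk2, stood outside the common order in the Epcam pair. Ccne1 measured 0.38 and -0.006 in Albumin tumours 1 and 2, 1.31 and 1.30 in Epcam tumours 1 and 2, and -0.16 and 0.77 in CLC tumours 1 and 2. The Epcam tumours were level and above the other 4. Ccne2 measured -6.42 and -6.65, -2.78 and -6.22, and -6.18 and -6.97, and it was well above background in Epcam tumour 1 only.

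**Figure D3:**
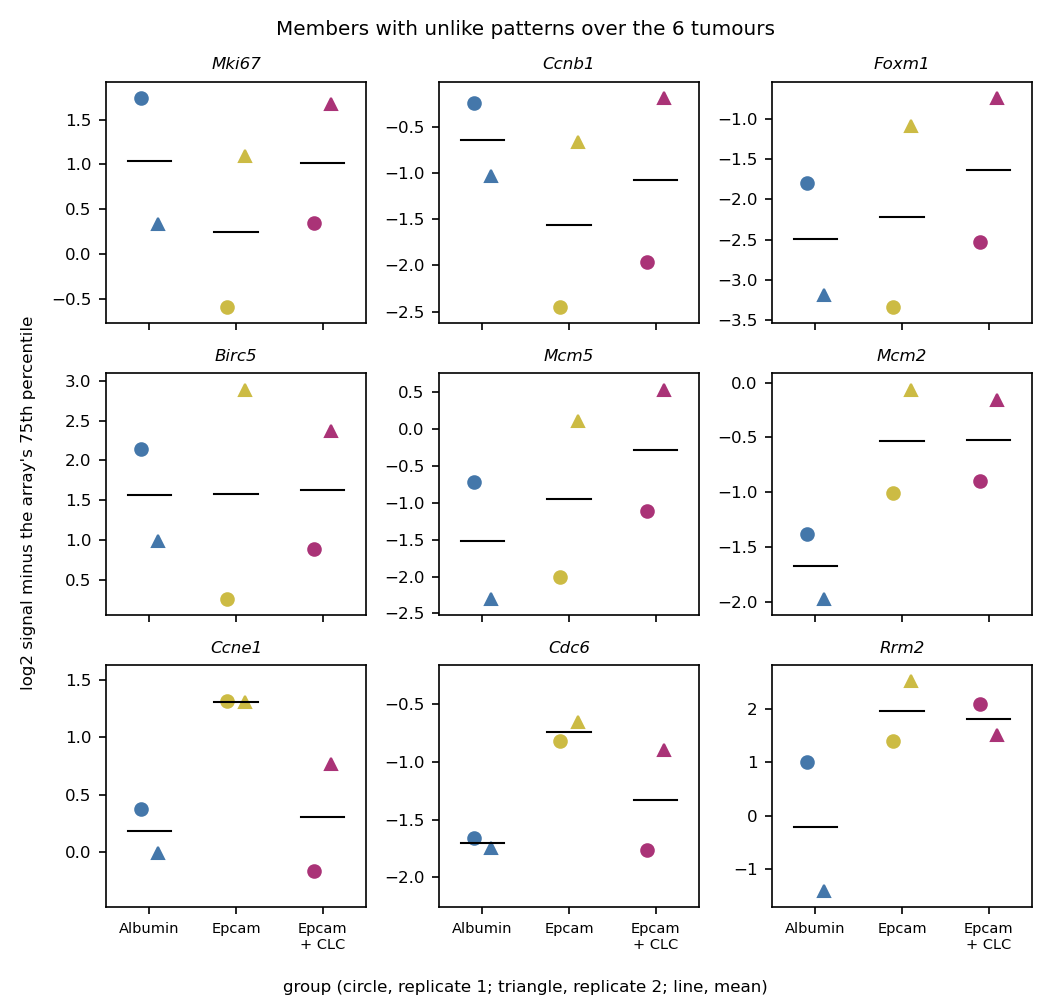
Levels of 9 members in the 6 tumours, as log2 signal minus the array's 75th percentile, with a scale of its own in each panel. Circles are replicate 1, triangles replicate 2 and lines the mean of the 2 tumours. Mki67, Ccnb1, Foxm1, Birc5 and Mcm5 overlap between all 3 groups. The Albumin tumours lie apart from the Epcam tumours for Mcm2, Ccne1, Cdc6 and Rrm2 by the probes used, though not by the second Cdc6 probe.

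The comparison of Epcam with Albumin tumours asks whether HCC without CLC differ by the labelled cell of origin. Its Albumin arrays lay on slide 1 and its Epcam arrays on slide 2, so that slide and origin cannot be told apart here either. The G1/S members were mostly higher in the Epcam tumours, 12 of 16 with a median difference of 0.84, and the G2/M members mostly lower, 7 of 26 higher with a median of -0.61, against a median of 0.060 over all features. None of these differences passed the limma test. Of the 39 members tested, 0 were called at an adjusted p under 0.05 (Benjamini-Hochberg over all features), against 0.244% of all features. Against 5482 of all 27412 features, 3 of the 39 members had an unadjusted limma p under 0.05. The 3 were Ccne1, with a difference of 1.12 ± 0.38 (SE, n = 2; limma adjusted p = 0.203), Cdc6 with 0.97 ± 0.35 (adjusted p = 0.222) and Rrm2 with 2.17 ± 0.85 (adjusted p = 0.241). Ccne1 and Cdc6 differed by 0.19 and 0.098 with slide as a block, and Cdc6 by 0.0041 with the mean of its 2 probes and 0.60 with normexp. Rrm2 differed by 0.97 without Albumin tumour 2 and by 3.38 without Albumin tumour 1. With 2 tumours a group an exact permutation test cannot give a p under 0.333. The groups did not overlap for 8 members, all higher in the Epcam tumours (Ccne1, Ccne2, Cdc6, Cdt1, Mcm2, Mcm3, Mcm6 and Rrm2, which are all G1/S members). That is 8 of 42, a smaller share than the 30.4% of all features, but 8 of the 16 G1/S members and 0 of the 26 G2/M members. Ccne2 was not well above background in Epcam tumour 2 or in either Albumin tumour. By the second Cdc6 probe the groups overlapped, at -4.80 and -1.49 in Albumin tumours 1 and 2 and -5.18 and -3.02 in Epcam tumours 1 and 2. No member was apart and lower, against 24.8% of all features.

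The difference of the G2/M members rested on single tumours. Their median was 0.45 without Epcam tumour 1 and 0.19 without Albumin tumour 1, against -1.27 without Albumin tumour 2 and -1.47 without Epcam tumour 2. The G1/S median stayed above 0 with each tumour left out, from 0.33 to 1.17, but was -0.13 with slide as a block, a fit in which the 2 slides are joined only by the CLC pair. For the same comparison Mki67 differed by -0.79 ± 0.80 (SE, n = 2; limma adjusted p = 0.607), Ccnb1 by -0.92 ± 0.82 (adjusted p = 0.560) and Mcm5 by 0.57 ± 0.96 (adjusted p = 0.771). Each SE was close to or above the difference itself.

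**Figure D4:**
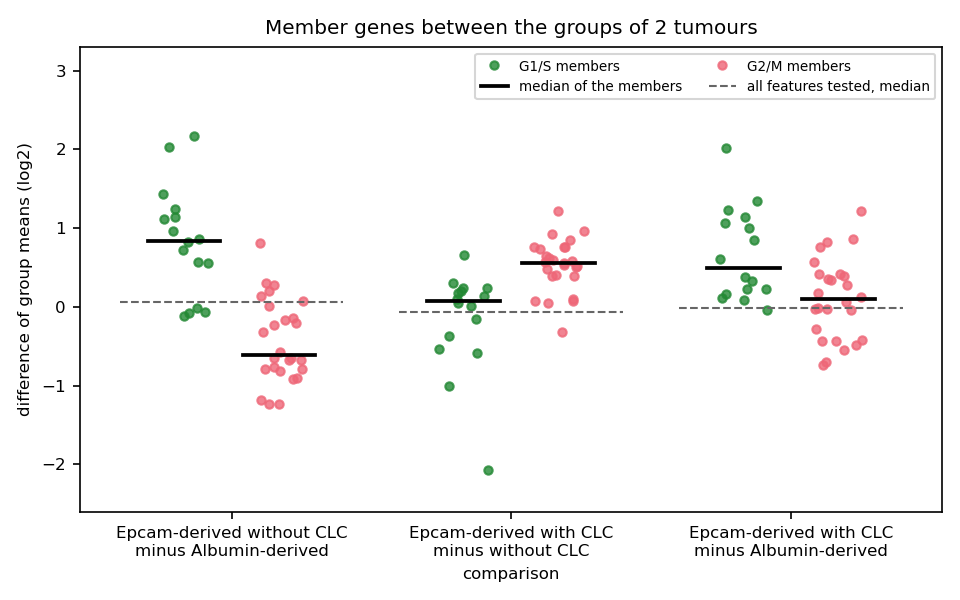
Differences of group means in log2 signal for the 42 members in the 3 comparisons, 1 point per member, with G1/S members in green and G2/M members in red. Black lines are medians of the members and dashed lines the median of all features tested. The G1/S median lies at 0.84 and the G2/M median at -0.61 in the comparison of Epcam with Albumin tumours. None of the 39 members tested passed the limma test in any comparison.

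The comparison of CLC with Epcam tumours asks whether Epcam-derived HCC differ with the presence of CLC. It shares the Epcam tumours with the previous comparison. Of the G2/M members 25 of 26 were higher in the CLC tumours, with a median of 0.56, and of the G1/S members 10 of 16, with a median of 0.075, against -0.061 over all features. Again 0 of 39 members were called, as were 0% of all features. Against 954 of all 27412 features, 1 member had an unadjusted limma p under 0.05. That member was Ccne1, with a difference of -1.004 ± 0.38 (SE, n = 2; limma adjusted p = 0.999), and Cdc6 differed by -0.59 ± 0.35 and Mcm6 by -0.53 ± 0.38 at the same adjusted p. Without CLC tumour 1, which is also the comparison within slide 2, the differences were -0.54 for Ccne1, -0.15 for Cdc6 and -0.15 for Mcm6. They were -1.02 for Cdc6 and -0.91 for Mcm6 without CLC tumour 2, and -0.30 for Mcm6 without Epcam tumour 2. Ccne1 and Cdc6 were apart and lower in the CLC tumours, 2 members against a background of 19.8%. By the second Cdc6 probe these groups overlapped, at -5.18 and -3.02 in Epcam tumours 1 and 2 and -5.59 and -3.45 in CLC tumours 1 and 2. No member was apart and higher, against 10.3%. The G1/S median was -0.43 without Epcam tumour 1 and also without CLC tumour 2. The G2/M median was -0.32 without Epcam tumour 1, -0.17 without CLC tumour 2 and 1.27 within slide 2, where CLC tumour 2 stands against both Epcam tumours. Mki67 differed by 0.76 ± 0.80, Ccnb1 by 0.48 ± 0.82 and Mcm5 by 0.66 ± 0.96 (SE, n = 2; limma adjusted p = 0.999 for each).

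The comparison of CLC with Albumin tumours sets the outer groups side by side, with the CLC and Albumin tumours of the other comparisons. The G1/S members were higher in the CLC tumours for 15 of 16, with a median of 0.50. The G2/M members were higher for 14 of 26, with a median of 0.095, against -0.0096 over all features. With the normexp background correction the G2/M median turned to -0.0096, against -0.12 over all features. It was -0.029 over 20 members with the filter on all 6 arrays, against -0.035, and 0.41 with the authors' value table, against 0.31. Here 0 of 39 members were called, against 0.062% of all features. Against 4388 of all 27412 features, 0 of the members had an unadjusted limma p under 0.05. The smallest p-values belonged to Mcm2, with a difference of 1.15 ± 0.46 (SE, n = 2; limma adjusted p = 0.313), Rrm2 with 2.02 ± 0.85 (adjusted p = 0.327) and Cdt1 with 1.34 ± 0.57 (adjusted p = 0.335). Rrm2 differed by 0.81 without Albumin tumour 2 and 3.23 without Albumin tumour 1, and Cdt1 by 0.59 without CLC tumour 2 and 2.09 without CLC tumour 1. The groups did not overlap for 5 members, all higher in the CLC tumours (Cdt1, Mcm2, Mcm3, Rrm2 and E2f1), against 23.8% of all features. They are 5 of the 42 members, 5 of the 16 G1/S members and 0 of the 26 G2/M members. No member was apart and lower, against 27%. Without CLC tumour 2, which is also the comparison within slide 1, the G1/S median was 0.13 and the G2/M median -0.58. Without Albumin tumour 1 the medians were 0.64 and 0.76, and without CLC tumour 1 they were 0.99 and 0.75. Mki67 differed by -0.029 ± 0.80 (SE, n = 2; limma adjusted p = 0.990), Ccnb1 by -0.44 ± 0.82 (adjusted p = 0.830) and Mcm5 by 1.22 ± 0.96 (adjusted p = 0.581). The sign for Mki67 turned under other scalings, to 0.017 with quantile normalisation.

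A list of 81 other cell cycle genes was read beside the members, all on the array and 76 tested. None of the 76 was called in any comparison by limma, and 5, 2 and 4 had an unadjusted p under 0.05 in the comparisons of Epcam with Albumin, CLC with Epcam and CLC with Albumin tumours. Over all 27412 features tested, these counts were 5482, 954 and 4388. Within pairs, 56 of 81 were higher in Albumin tumour 1, 70 in Epcam tumour 2 and 71 in CLC tumour 2. The 32 mitosis genes of this list followed for 29, 32 and 29, with medians of 1.37, 1.39 and 1.17. The 20 replication genes followed for 16, 19 and 19, with medians of 0.38, 1.06 and 0.84. The 10 inhibitors and pocket proteins, which hold cells in G1, followed for 4, 5 and 7, and the 7 G1 cyclins and kinases for 2, 4 and 7. The 7 E2F and MuvB genes followed for 3, 6 and 4, and the 5 checkpoint genes for 2, 4 and 5.

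Mcm10, a factor that helps to start replication forks, measured 3.47 and 3.05, 0.50 and 1.70, and 0.92 and 1.42 in the Albumin, Epcam and CLC tumours. The Albumin tumours lay above the other 4. The difference was -2.16 ± 0.47 (SE, n = 2; limma adjusted p = 0.115) for Epcam against Albumin tumours and -2.09 ± 0.47 (adjusted p = 0.146) for CLC against Albumin tumours. Chaf1a, a subunit of the complex that packs new DNA into nucleosomes, measured -2.62 and -3.49, -1.59 and -0.54, and -1.46 and -0.82, with the Albumin tumours below the other 4. It differed by 1.99 ± 0.51 (SE, n = 2; limma adjusted p = 0.141) and 1.91 ± 0.51 (adjusted p = 0.186) in those comparisons, or 1.04 and 0.99 with normexp. Cdk2, the partner of the E cyclins, measured -4.21 and -3.93, -3.66 and -3.05, and -3.26 and -3.10 and differed by 0.89 ± 0.31 (SE, n = 2; limma adjusted p = 0.267) between CLC and Albumin tumours, or 0.12 with normexp.

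The D cyclins, which carry growth signals to Cdk4 and Cdk6 early in G1, each had an order of their own. Ccnd1 measured 3.08 and 2.40, 2.29 and 1.23, and 3.12 and 3.47, with the Epcam tumours below the other 4, and differed by 1.54 ± 0.46 (SE, n = 2; limma adjusted p = 0.999) between CLC and Epcam tumours, or 1.01 without Epcam tumour 2. Ccnd2 measured 1.74 and 2.27, 3.07 and 2.20, and 2.71 and 2.78, with the ranges of the Albumin and Epcam tumours overlapping and the CLC tumours inside the Epcam range. Ccnd3 measured 2.60 and 2.17, 4.21 and 3.91, and 2.93 and 3.86, with the Albumin tumours below the other 4, and differed by 1.67 ± 0.40 (SE, n = 2; limma adjusted p = 0.129) between Epcam and Albumin tumours, or 0.74 with slide as a block. E2f8, a repressor of the E2F family, measured -1.24 and -2.77, -3.37 and -2.38, and -0.31 and -1.28 and differed by 2.08 ± 0.66 (SE, n = 2; limma adjusted p = 0.999) between CLC and Epcam tumours. Orc6, a subunit of the origin recognition complex, measured 0.25 and -0.048, -0.51 and -0.30, and 0.18 and -0.037 and differed by 0.47 ± 0.27 (SE, n = 2; limma adjusted p = 0.999) in that comparison.

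The CDK inhibitors did not share 1 pattern. Cdkn1a, the p53 target p21, measured 2.56 and 2.34, 2.72 and 1.07, and 2.72 and 1.18. It was lower in Epcam tumour 2 and CLC tumour 2 than in their partners, by 3.13-fold and 2.91-fold, opposite to the members, and nearly level in the Albumin pair. Cdkn2a, the locus of the p16 and Arf tumour suppressors, measured -1.59 and -0.27, 0.26 and -1.28, and -0.033 and -1.07. It ran opposite to the G2/M members in all 3 pairs, with gaps of 2.50-fold, 2.90-fold and 2.05-fold. Cdkn1b, the inhibitor p27, measured 1.46 and 1.69, 1.44 and 1.42, and 1.35 and 1.52 and was the most even of the 5 inhibitors named. Cdkn1c, the imprinted inhibitor p57, measured 0.19 and 1.59, -0.98 and -0.63, and -0.59 and 0.34, with the Albumin tumours above the Epcam tumours, and Cdkn2c, the inhibitor p18, measured 0.82 and -0.078, 0.45 and 0.64, and 0.80 and 0.83.

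**Figure D5:**
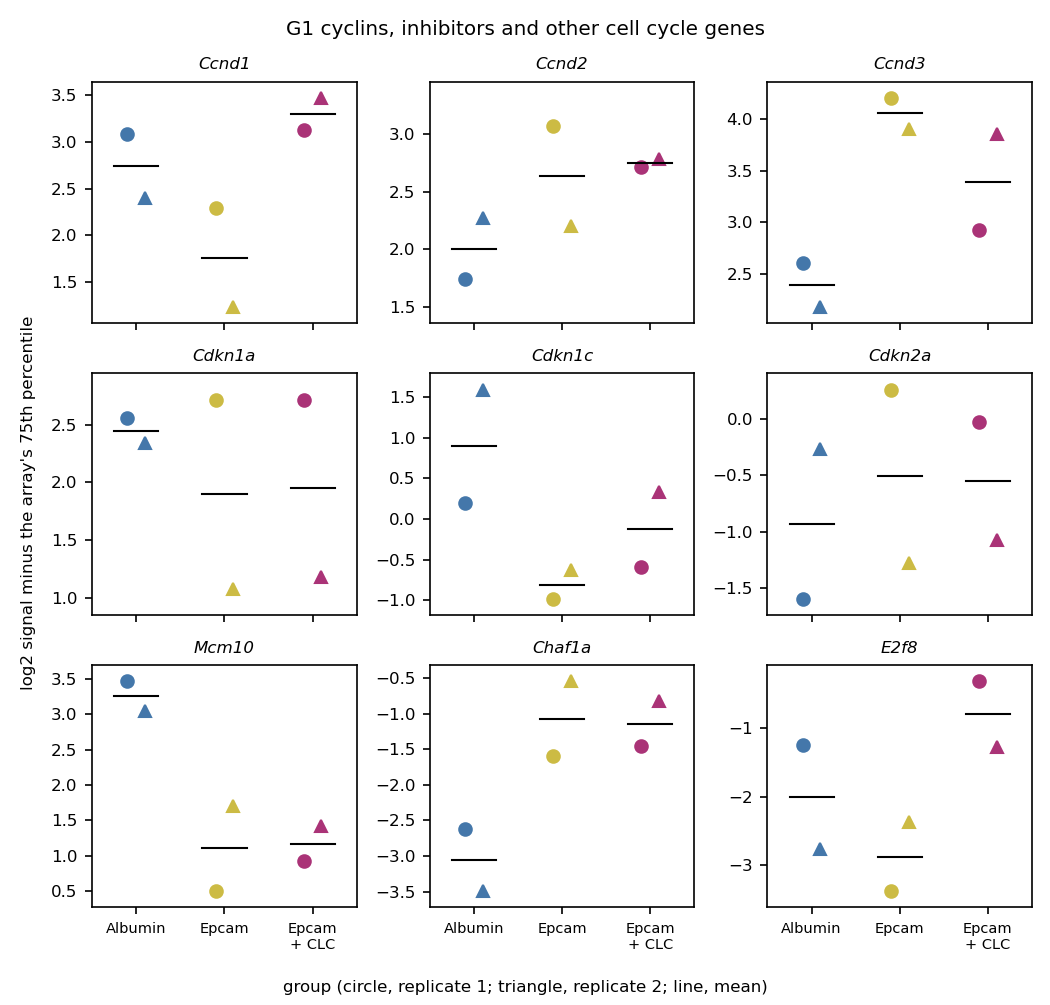
Levels of 9 cell cycle genes outside the 42 members in the 6 tumours, as log2 signal minus the array's 75th percentile, with a scale of its own in each panel. Circles are replicate 1, triangles replicate 2 and lines the mean of the 2 tumours. Mcm10 is higher and Chaf1a and Ccnd3 are lower in both Albumin tumours than in the other 4, and Cdkn2a is higher in Albumin tumour 2, Epcam tumour 1 and CLC tumour 1 than in the other tumour of each pair.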

How the data were processed

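The scanner images were read by Agilent's Feature Extraction software, version 11.5.1.1 (file headers). Per the file headers, the deposited processed signal is an intensity after background subtraction and removal of trends, with arrays left unscaled. Other deposited columns flag spots as controls, outliers, saturated or well above background. The authors' value table, also an intensity, was that signal times 1 factor per array. Control and outlier spots were left out, log2 of the deposited intensity was taken and each array's 75th percentile subtracted. Features were kept when well above background (at least 0.5 of spots) on both arrays of at least 1 group, and the brightest probe stood for a gene. Accessions were named through RefSeq (GRCm38.p6), since the array design is annotated on mm9.

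The 27412 features were fitted with limma 3.58.1 in R 4.3.3 (lmFit and eBayes, a coefficient per group, 3 residual and 2.62 prior degrees of freedom), with Benjamini-Hochberg adjustment over all features and a threshold of 0.05. Reading used data.table (version 1.17.8) and jsonlite (version 2.0.0). Scripts were tested on simulated data. The number of arrays limits the precision. The members, gene lists and tests were chosen with earlier results of these data known. Values on every array are given for 24 members set by role and for the 3 with the smallest p in each comparison. Of the other cell cycle genes, those with the 3 smallest p-values in each comparison, 5 inhibitors and 3 D cyclins are named. Alternatives were normexp (offset 50, on the median spot and background intensity of the deposited tables), quantile normalisation, a percentile over detected probes, the authors' value table, no filter or a filter on all 6 arrays, the mean of a gene's probes, slide and replicate blocks, and leaving out each array. The same-numbered tumours' deviations correlated at -0.16, 0.062 and 0.23, so the numbers were not taken as pairs.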

Additional observations from a re-analysis of the deposited data

How the results depend on the processing

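The count of members called was 0 in each comparison under every alternative run. The median over the members for Epcam against Albumin tumours was -0.071, moved to -1.41 with slide as a block, and ran from -0.86 to 0.59 with 1 array left out. The medians with 1 array left out ran from -0.39 to 1.20 for CLC against Epcam tumours and from -0.23 to 0.81 for CLC against Albumin tumours. Mcm5 turned to -1.08 with slide as a block for Epcam against Albumin tumours. Mki67 for CLC against Albumin tumours turned to 0.017 with quantile normalisation, 0.037 with the percentile over detected probes and 0.29 with the authors' value table. With 1 array left out, Mki67 ran from -1.64 to 0.052, from -0.081 to 1.61 and from -0.73 to 0.68 for Epcam against Albumin, CLC against Epcam and CLC against Albumin tumours. Over the same alternatives Ccnb1 ran from -0.41 to 1.38 and from -1.32 to 0.45 for CLC against Epcam and CLC against Albumin tumours, and Mcm5 from -0.50 to 1.63 and from -0.40 to 1.72 for Epcam against Albumin and CLC against Epcam tumours. The causes were not tested. With the replicate block the median over the members was -0.071, 0.39 and 0.25 in the 3 comparisons, as without it, and 0 members were called.

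Features called for Epcam against Albumin tumours numbered 67, against 135 with normexp, 102 with quantile normalisation, 129 with the authors' value table, 110 with the mean of a gene's probes, 32 with the filter on all 6 arrays and 1 with no filter. For CLC against Albumin tumours they numbered 17, against 66 with normexp, 66 with quantile normalisation and 1 with no filter. The median over all features for those comparisons was 0.37 and 0.31 with the authors' value table, -0.16 and -0.12 with normexp, and -0.18 and -0.14 with no filter. Within each pair, 39 to 42 of 42 members kept the common order under the scalings run, 34 of 35 with the filter on all 6 arrays and 37 or 38 of 39 with the mean of a gene's probes. Signal over background limits Ccne2, Bub1, Bub1b, Kif11, Ttk, Aurkb and Kif23, which were not well above background on 1 or more arrays.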
